A study of Rattus norvegicus with 9 samples.

Results

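The translation initiation and elongation factors were followed in horizontal basal cells of the rat, which sit at the base of the olfactory epithelium as its reserve stem cells, after the cultures had been given a phorbol ester. Every gene symbol in the count tables that begins with Eif1 to Eif6, or with Eef1 or Eef2, was taken, which gave 61 of 17315 genes. The cells came from SD rats and were grown as a primary culture at passage 7. PMA (phorbol 12-myristate 13-acetate), which switches on protein kinase C, was given at 50 nM, and 3 libraries each were made after 6 h and 12 h, and 3 vehicle libraries came from cells given 0.1% DMSO and labelled time 0. No vehicle library carries a 6 h or 12 h label, so PMA and time in culture cannot be told apart. Whether libraries of the same group derive from different animals or dishes is not labelled. The p-values therefore set a group difference only against the scatter of these libraries, which may not be the scatter between animals.

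Translation begins when eIF2 brings the initiator tRNA to the small ribosomal subunit and the eIF4 factors recruit the capped end of an mRNA. The scanning complex, held by eIF3, eIF1 and eIF1A, then moves along the leader until it meets a start codon. eIF5 then triggers GTP hydrolysis by eIF2, and eIF5B joins the large subunit. eEF1A carries each further tRNA to the ribosome and eEF2 moves the ribosome along. Control acts mainly on eIF2, which stress kinases phosphorylate and eIF2B recharges, on eIF4E, which the 4E-BPs block, and on eEF2, which eEF2 kinase inhibits. Many of these mRNAs, with those of the ribosomal proteins, begin with a pyrimidine tract that places their own translation under mTORC1.

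Libraries held 13601635 to 19001819 reads in genes, and 6.0% to 7.7% of reads mapped to several places and were counted for no gene. Levels are CPM, counts relative to library totals scaled by the trimmed mean of M values (TMM), whose factors were 1.28 to 1.31 in vehicle, 0.879 to 0.911 at 6 h and 0.848 to 0.880 at 12 h. All 7 basal cell markers checked were above 1 CPM in every library, but their summed level was 15680 to 18566 CPM in vehicle, 2782 to 3466 CPM at 6 h and 4356 to 5040 CPM at 12 h. Krt5 and Krt14 made up most of that sum, and 6 of the 7 markers fell at both times. Icam1 rose, with 143 ± 11.2, 176 ± 18.7 and 359 ± 40.5 CPM in vehicle, at 6 h and at 12 h (SD, n = 3 each). Of the markers of other cell types, 5 of 6 for neurons, 3 of 4 for sustentacular and gland cells, 2 of 4 for fibroblasts, 2 of 3 for immune cells and 2 of 2 for endothelial cells stayed under 1 CPM in every library. Sox9, counted with the sustentacular and gland markers, and Cd68, counted with the immune markers, moved with the groups. Sox9 had 18.0 ± 1.2, 72.5 ± 6.1 and 137 ± 19.4 CPM in vehicle, at 6 h and at 12 h, and Cd68 had 19.6 ± 1.5, 69.4 ± 1.5 and 85.6 ± 6.4 CPM (SD, n = 3 each). The part of these shifts in the results that follow was not tested.

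Sequences at the gene starts were read from RefSeq windows (assembly GRCr8, 250 bases before to 50 after each annotated start), while the counts rest on rn6. A window existed for 54 of the 61 factors and for 7767 of the tested genes. The letters CACGTG, the E-box bound by MYC and by the TFE3 family among others, stood on 10 of the 54 (18.5%), against 756 of 7767 tested genes (9.73%). These 10 were 7 of the 26 factors with a window that were higher at 6 h (Eef2, Eif1b, Eif3a, Eif3f, Eif4e, Eif4h and Eif5a), 2 of the 17 that were lower (Eef2k and Eif3b) and 1 of the 10 with no call (Eif5a2). How many of all tested genes with each call hold the motif was not counted, so a link between motif and call was not tested. The motif reads the same on both strands. For each factor called at 6 h that holds it upstream of the start, the match nearest the start is printed. Eif4e had another at position -237, Eif3a held it past the start at position 31, and Eif5a2, with no call at 6 h, held it upstream at positions -196 and -171. Capitals mark CACGTG, and the number is the position of its first base, with the first transcribed base as 1.
Eef2 (chr7:9189292-9189331, minus strand, position -76): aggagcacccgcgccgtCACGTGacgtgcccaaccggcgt
Eif4e (chr2:229740656-229740695, plus strand, position -80): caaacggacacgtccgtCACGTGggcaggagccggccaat
Eif1b (chr8:129081087-129081126, plus strand, position -54): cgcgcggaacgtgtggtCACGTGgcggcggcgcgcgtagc
Eif3f (chr1:172368986-172369025, plus strand, position -59): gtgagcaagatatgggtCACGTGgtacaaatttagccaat
Eif4h (chr12:27719507-27719546, plus strand, position -168): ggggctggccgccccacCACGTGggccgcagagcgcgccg
Eif5a (chr10:55143405-55143444, minus strand, position -206): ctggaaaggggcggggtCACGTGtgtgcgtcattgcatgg
Eef2k (chr1:184824326-184824365, plus strand, position -77): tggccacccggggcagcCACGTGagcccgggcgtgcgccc
Eif3b (chr12:19334803-19334842, minus strand, position -57): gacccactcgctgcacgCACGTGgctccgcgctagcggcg

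A pyrimidine tract was a C within 5 bases before to 10 after the annotated start, followed by at least 4 of C or T. It could reach further upstream, as that of Eef1e1 did. Such a tract stood on the coding strand of 13 of the 54 factors (24.1%), against 1705 of 7767 tested genes (22.0%), which is near the background. It was found on 6 of the 26 factors with a window that were higher at 6 h (Eef1a1, Eef1b2, Eif1, Eif2ak3, Eif3f and Eif3m). It also stood on 3 of the 17 lower ones (Eef1e1, Eif2ak4 and Eif4g3) and on 4 of the 10 with no call (Eif2a, Eif2b5, Eif3c and Eif5a2). The 4 starts shown next belong to an elongation factor, an exchange subunit of its complex and a pair of eIF3 subunits, with the tract in capitals. All 4 are from factors higher at 6 h, and a link between tract and call was not tested.
Eef1a1 (chr8:88225055-88225084, minus strand, position -1): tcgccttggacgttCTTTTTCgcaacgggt
Eef1b2 (chr9:72074076-72074105, plus strand, position 3): tttccggccggtcccggCCCTTTTTCTCCC
Eif3f (chr1:172369047-172369076, plus strand, position 5): tcacgcccttccgttctagCCTCTCTCTTT
Eif3m (chr3:111897179-111897208, minus strand, position 6): cgtaacaccgtgtggtaccgCTCCTTTTCC
A match describes the letters in these windows and says nothing about binding or translation.

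A larger share of the cells' mRNA reads fell on translation factors in PMA, and the rise lay in the elongation factors Eef1a1 and Eef2. Together the 61 factors took 3.32 ± 0.066% of gene reads in vehicle, 4.66 ± 0.023% at 6 h and 4.30 ± 0.078% at 12 h (SD, n = 3 each). Eef1a1 alone, which encodes the protein that delivers aminoacyl-tRNA, took 0.942 ± 0.0087%, 2.03 ± 0.020% and 1.92 ± 0.083%. Eef2 took 0.476 ± 0.014%, 0.741 ± 0.023% and 0.710 ± 0.0087%. The other 59 factors together took 1.91 ± 0.057%, 1.89 ± 0.012% and 1.67 ± 0.034%, so that their summed share at 6 h lay within the vehicle spread and at 12 h lay below it. For Eef1a1, Eef2 and the sum of all 61 factors no library of either PMA group overlapped the vehicle libraries. These shares use the plain library totals, without the TMM factors, and so rest on that choice of scaling. By plain totals the median log2 fold change against vehicle over all tested genes was -0.57 at 6 h and -0.60 at 12 h. In bulk RNA a change in the RNA per cell and a change in the fraction of cells that hold it cannot be told apart.

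**Figure D1:**
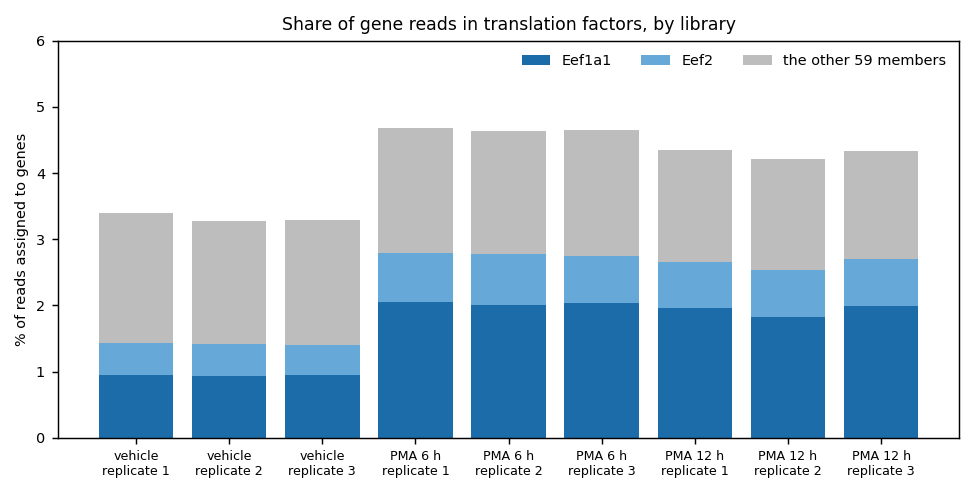
Share of each library's gene reads, in percent of reads assigned to genes, that fell on Eef1a1, on Eef2 and on the other 59 factors, for the 3 vehicle, 3 PMA 6 h and 3 PMA 12 h libraries. The Eef1a1 segment is 0.932% to 0.948% in vehicle and at least 1.83% in every PMA library.

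After 6 h, 29 of the 60 factors that could be tested rose against vehicle and 19 fell (48 called, 80.0%, against 76.8% of all genes), and after 12 h 23 rose and 24 fell (47 called, 78.3%, against 75.8%; edgeR quasi-likelihood test, Benjamini-Hochberg adjusted p under 0.05 over 10128 genes). Of all tested genes, 37.8% were called higher and 39.0% lower at 6 h, and 37.7% and 38.2% at 12 h. The members' 48.3% higher and 31.7% lower at 6 h, and 38.3% and 40.0% at 12 h, are read against those shares. The counts of each smaller list below are to be read against the same shares. Most of the factors' changes were under 2-fold. At 6 h, 6 factors were at least 2-fold higher (against 18.4% of all genes) and 4 at least 2-fold lower (against 21.0%). At 12 h these numbers were 6 (against 18.0%) and 5 (against 20.4%). The median log2 fold change of the 60 factors was 0.17 at 6 h and 0.02 at 12 h, beside -0.03 and -0.02 over all tested genes. The vehicle libraries are shared by both comparisons. The 3 libraries of each group did not overlap for 51 factors at 6 h (79.0% of all genes) and 50 at 12 h (78.7%). Eef1a2, the eEF1A form of nerve and muscle, was not tested. It had 1, 3 and 0 reads in vehicle, 0 in every 6 h library and 9, 4 and 0 reads at 12 h.

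**Figure D2:**
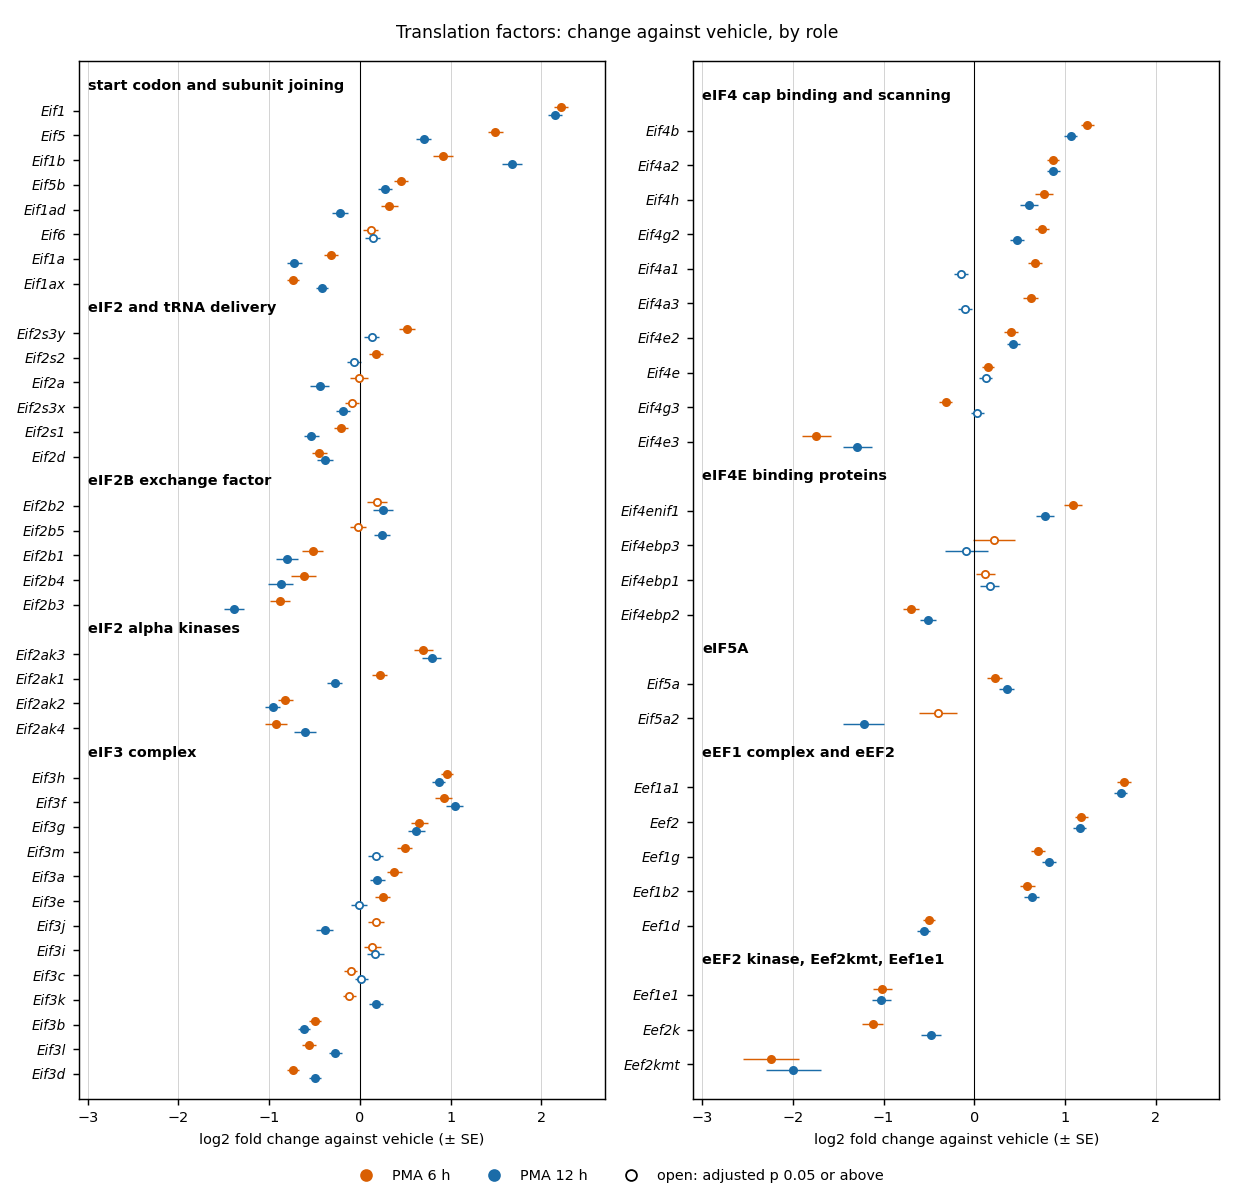
Fitted log2 fold change ± SE of each of the 60 tested factors at PMA 6 h and PMA 12 h against vehicle, grouped by role (open circles have an adjusted p of 0.05 or above). Eif1 lies farthest to the right at 2.21 and 2.15, and Eef2kmt farthest to the left at -2.24 and -1.99.

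How many factors count as higher depends on how the libraries are scaled, because the TMM factors themselves differ between vehicle and PMA. Scaling by the upper quartile shifted the median gene by -0.26 at 6 h and -0.27 at 12 h on the log2 scale, and total counts alone shifted it by -0.54 and -0.58. The split of higher to lower factors at 6 h, 29 to 19, became 21 to 25 with the upper quartile and 13 to 36 with total counts alone. At 12 h the split of 23 to 24 became 16 to 30 and 9 to 43. Median-of-ratios scaling kept it at 29 to 19 and at 23 to 24. In each group of factors described here the split under the upper quartile equalled or lay between those under TMM and under total counts alone. Under all 4 scalings 13 factors were called higher at 6 h and 19 lower (22.5% and 38.8% of all genes met the same conditions). The higher ones were Eef1a1, Eef1g, Eef2, Eif1, Eif1b, Eif3f, Eif3h, Eif4a2, Eif4b, Eif4enif1, Eif4g2, Eif4h and Eif5. At 12 h the higher ones were 9 of these, without Eif4enif1, Eif4g2, Eif4h and Eif5, and 24 were lower (20.9% and 38.1% of all genes). Every factor that was called lower under TMM was therefore called lower under the other 3 scalings too. The directions of Eif1ad, Eif2ak1, Eif2s2, Eif3e, Eif4e and Eif5a at 6 h, and of Eif2b2, Eif2b5, Eif3a, Eif3k, Eif5a and Eif5b at 12 h, were called higher under TMM and lower with total counts alone. Values that follow use TMM. Between 12 h and 6 h the scaling shifted the median gene by -0.01 (upper quartile) and -0.04 (total counts alone), and no factor's called direction turned.

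**Figure D3:**
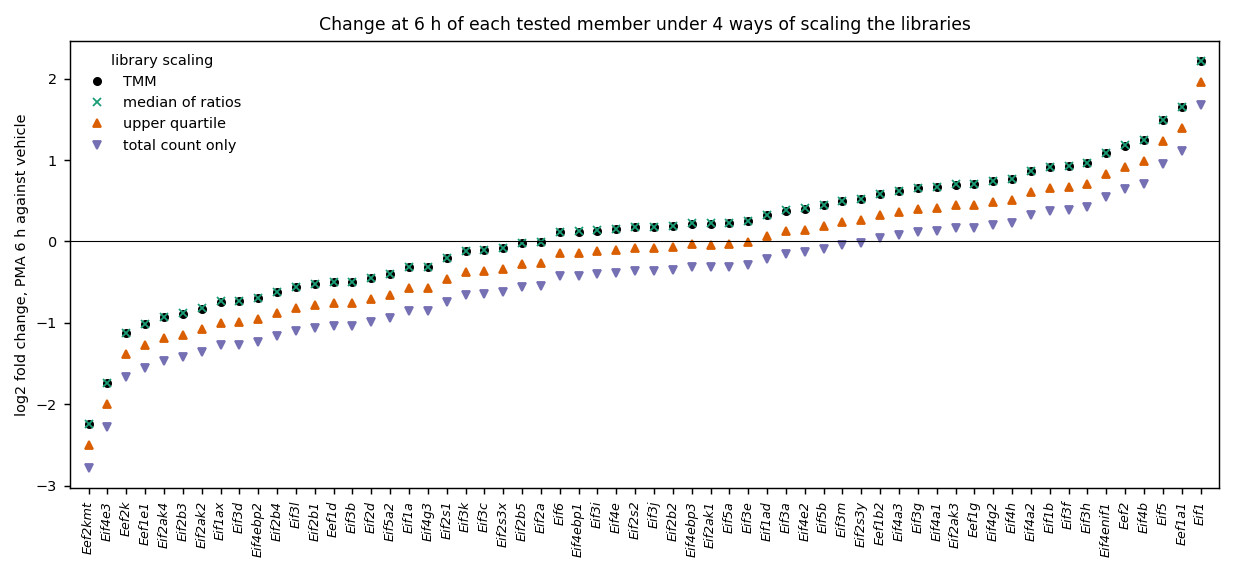
Log2 fold change at PMA 6 h against vehicle of the 60 tested factors, ordered by their TMM value, under 4 ways of scaling the libraries. The 4 marks of a gene keep nearly the same distance for every gene, with total counts alone lying lowest, and genes near 0 under TMM cross the line.

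Start-codon selection held the steepest rise of the family. Eif1, which keeps the scanning ribosome from stopping at wrong codons, had 332, 344 and 358 CPM in vehicle, 1582, 1634 and 1573 CPM at 6 h and 1642, 1527 and 1408 CPM at 12 h. Its PMA libraries all lay above its vehicle libraries, 4.63-fold at 6 h (log2 fold change 2.21 ± 0.08, adjusted p = 6.1e-14) and 4.43-fold at 12 h (2.15 ± 0.08, adjusted p = 9.5e-14). Its close paralogue Eif1b rose in steps, with 17.7, 18.4 and 21.7 CPM in vehicle, 40.6, 33.6 and 34.8 CPM at 6 h and 58.8, 62.5 and 62.8 CPM at 12 h. No library of any group overlapped another group there. Against vehicle it was 0.91 ± 0.11 higher at 6 h and 1.67 ± 0.11 higher at 12 h (adjusted p = 7.1e-07 and 2.9e-10), and 12 h exceeded 6 h by 0.76 ± 0.11 (adjusted p = 1.7e-05). Eif5, the GTPase-activating protein of eIF2, had 406, 416 and 453 CPM in vehicle, 1191, 1121 and 1275 CPM at 6 h and 731, 728 and 614 CPM at 12 h. It peaked at 6 h (1.49 ± 0.09, adjusted p = 4.2e-11) and was lower at 12 h than at 6 h (-0.79 ± 0.08, adjusted p = 7.8e-07). At 12 h it still lay above vehicle (0.70 ± 0.08, adjusted p = 7.9e-07), with 0.12 and no call under total counts alone. Eif1a and Eif1ax, near-identical copies of eIF1A between which reads may be split or lost, fell at both times (-0.32 and -0.74 at 6 h, -0.72 and -0.42 at 12 h). Eif5b, the subunit-joining GTPase, rose by 0.45 ± 0.08 and 0.28 ± 0.08 (-0.090 and -0.31 with total counts alone). Eif6, which keeps free large subunits apart from small ones, was called at neither time (0.12 and 0.14). In all, 5 of the 8 factors rose and 2 fell at 6 h, and 4 rose and 3 fell at 12 h. Under total counts alone 3 rose and 4 fell at 6 h, and 2 rose and 5 fell at 12 h.

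**Figure D4:**
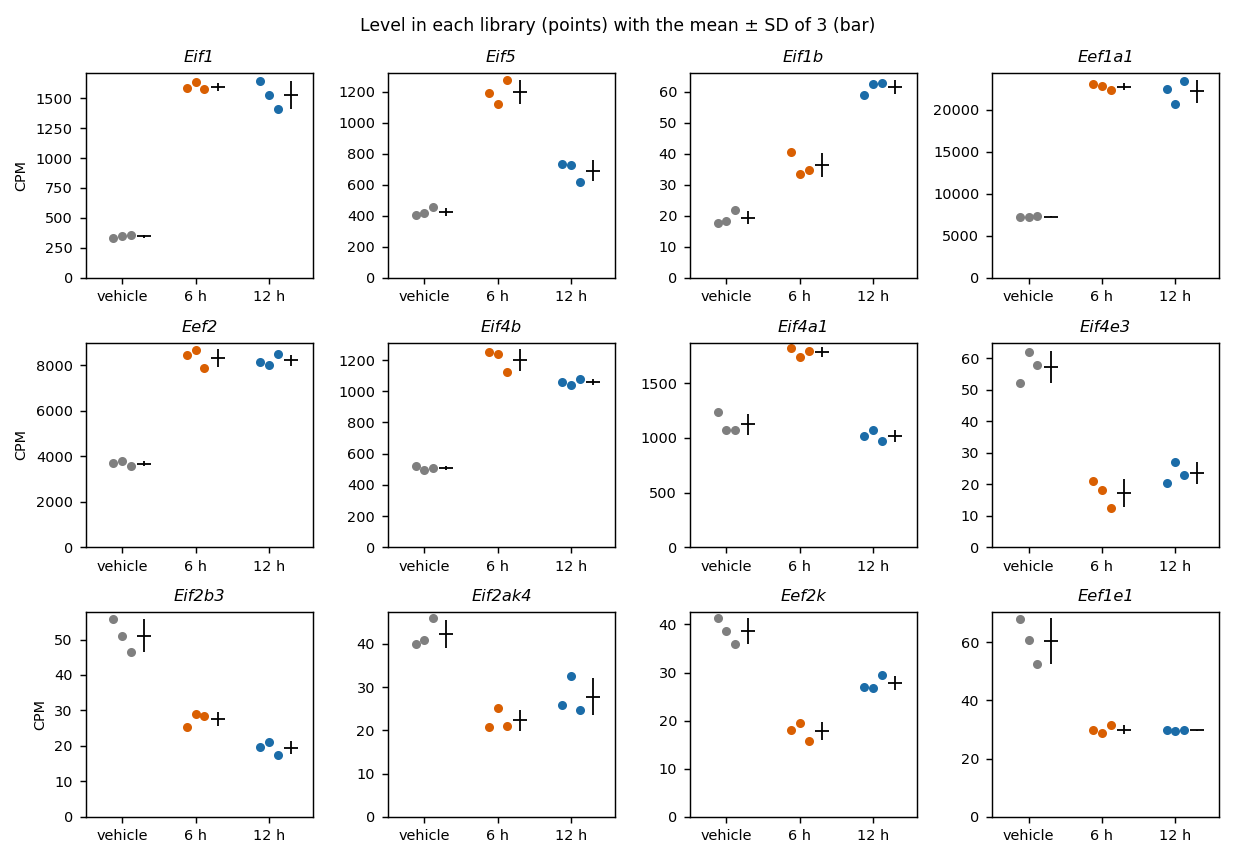
Levels in CPM of 12 factors in each library (points) with the mean ± SD of 3 libraries (bar), each axis starting at 0. Eif1, Eef1a1 and Eef2 stay high from 6 h to 12 h. Eif4b lies above vehicle at both times and lower at 12 h than at 6 h. Eif5 and Eif4a1 peak at 6 h, and Eif1b climbs in both steps. Eif4e3, Eif2b3, Eif2ak4, Eef2k and Eef1e1 lie lower in both PMA groups than in vehicle.

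In the eIF2 group 4 of 6 genes, and in its exchange factor eIF2B 3 of 5, were called lower at 12 h than in vehicle, beside 38.2% of all tested genes. Eif2s1, the alpha subunit that the stress kinases phosphorylate, had 279, 266 and 289 CPM in vehicle, 246, 230 and 247 CPM at 6 h and 197, 208 and 171 CPM at 12 h. The 3 groups did not overlap. It fell at 6 h and at 12 h against vehicle (-0.21 ± 0.08 and -0.53 ± 0.08, adjusted p = 0.0227 and 8.0e-06) and at 12 h against 6 h (-0.33 ± 0.08, adjusted p = 0.00213). Its 6 h call was lost without vehicle replicate 3 (-0.18) or PMA 6 h replicate 2 (-0.17). Eif2s2, the beta subunit, had 380, 386 and 410 CPM in vehicle, 428, 433 and 465 CPM at 6 h and 390, 394 and 340 CPM at 12 h. Its small rise at 6 h (0.17 ± 0.08, adjusted p = 0.0439) turned to -0.36 with total counts alone. That call was lost without any single library among vehicle replicates 1 and 2, PMA 6 h replicates 1 to 3 and PMA 12 h replicate 1 (0.12 to 0.20). Its 12 h level was lower than its 6 h level (-0.24 ± 0.08, adjusted p = 0.0142), a call lost without PMA 6 h replicate 3 (-0.20) or PMA 12 h replicate 3 (-0.17).

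The gamma subunit is encoded by Eif2s3x and its Y-linked copy Eif2s3y, whose sequences are close enough that reads may be misplaced or lost. Eif2s3y had 83.9, 76.5 and 76.6 CPM in vehicle, 102, 110 and 127 CPM at 6 h and 86.8, 87.1 and 85.1 CPM at 12 h. It was higher at 6 h (0.52 ± 0.09, adjusted p = 2.9e-05; -0.019 with total counts alone) and not called at 12 h against vehicle (0.13 ± 0.09, adjusted p = 0.186). Eif2s3x was called at 12 h only (-0.19 ± 0.08, adjusted p = 0.033), and the call was lost without vehicle replicate 1 (-0.16), PMA 12 h replicate 1 (-0.18) or PMA 12 h replicate 3 (-0.17). At 6 h it was called without PMA 6 h replicate 3 (-0.18). Eif2d, which can load the initiator tRNA without GTP, fell at both times (-0.45 and -0.39), and Eif2a, another carrier outside the eIF2 complex, fell at 12 h (-0.45 ± 0.10, adjusted p = 8.9e-04). Of these 6 genes 2 rose and 2 fell at 6 h (0 and 5 with total counts alone), and 0 rose and 4 fell at 12 h (0 and 6).

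Of the 5 eIF2B subunits 3 fell at both times, Eif2b1, Eif2b3 and Eif2b4, and 0 rose at 6 h and 2 at 12 h (all 5 fell at both times with total counts alone). Eif2b3, which encodes the gamma subunit, had 55.8, 51.1 and 46.5 CPM in vehicle, 25.5, 29.1 and 28.4 CPM at 6 h and 19.8, 21.2 and 17.4 CPM at 12 h. Its groups did not overlap, and at 12 h it stood 2.62-fold lower than in vehicle (-0.89 ± 0.11 at 6 h, -1.39 ± 0.11 at 12 h, adjusted p = 1.1e-06 and 5.3e-09). Eif2b5, the catalytic epsilon subunit, had 97.6, 77.9 and 87.9 CPM in vehicle, 83.6, 82.7 and 92.6 CPM at 6 h and 99.0, 104 and 108 CPM at 12 h. It was called higher at 12 h against vehicle (0.24 ± 0.09, adjusted p = 0.0216) and against 6 h (0.26 ± 0.09, adjusted p = 0.0208). The first call was lost without vehicle replicate 2 (0.16) or PMA 12 h replicate 3 (0.21). The other was lost without PMA 6 h replicate 1 (0.24), PMA 6 h replicate 2 (0.24) or PMA 12 h replicate 3 (0.23). Eif2b2, the beta subunit, was called higher at 12 h (0.26 ± 0.11, adjusted p = 0.041). That call was lost on leaving out vehicle replicate 2, vehicle replicate 3, PMA 12 h replicate 1 or PMA 12 h replicate 3 (0.18 to 0.26), and at 6 h it was called without vehicle replicate 1 (0.28) or PMA 6 h replicate 1 (0.29). Both of these 12 h directions turned under the upper quartile (Eif2b5 -0.03, Eif2b2 -0.01), so only the 3 falls held under all 4 scalings at 12 h.

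The 4 kinases that phosphorylate eIF2 alpha differed among themselves. Eif2ak2, the kinase PKR that responds to double-stranded RNA, had 84.8, 84.9 and 82.7 CPM in vehicle, 46.9, 45.9 and 49.8 CPM at 6 h and 42.7, 45.2 and 41.7 CPM at 12 h. Its PMA libraries all lay below vehicle (-0.82 ± 0.08 and -0.96 ± 0.08, adjusted p = 6.3e-08 and 1.0e-08). Eif2ak4, the amino acid sensor GCN2, had 40.0, 41.0 and 46.0 CPM in vehicle, 20.8, 25.0 and 21.0 CPM at 6 h and 25.9, 32.6 and 24.7 CPM at 12 h. It fell at both times (-0.93 ± 0.12 and -0.61 ± 0.12, adjusted p = 2.7e-06 and 2.5e-04). The PMA groups overlapped each other, and the call at 12 h against 6 h (0.32 ± 0.13, adjusted p = 0.0453) was lost without vehicle replicate 2 (0.32), PMA 6 h replicate 1 (0.27), PMA 6 h replicate 3 (0.28) or PMA 12 h replicate 2 (0.19). Eif2ak3, the kinase PERK of the endoplasmic reticulum, rose at both times (0.70 ± 0.10 and 0.79 ± 0.10, adjusted p = 9.2e-06 and 2.3e-06), but by 0.16 and 0.21, no longer called, with total counts alone. Eif2ak1, the heme-regulated kinase HRI, had 69.6, 69.7 and 64.0 CPM in vehicle, 75.1, 77.9 and 83.8 CPM at 6 h and 58.2, 53.4 and 56.3 CPM at 12 h. It was higher than vehicle at 6 h (0.22 ± 0.08, adjusted p = 0.0223) and lower at 12 h (-0.28 ± 0.08, adjusted p = 0.00617). The 6 h direction turned with total counts alone (-0.32). Its call was lost on leaving out vehicle replicate 3 (0.18) or PMA 6 h replicate 3 (0.16). So 2 of the 4 rose and 2 fell at 6 h, and 1 rose and 3 fell at 12 h, with 0 and 3 at each time under total counts alone.

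The subunits of eIF3, the scaffold between mRNA and small ribosomal subunit, did not move as a block. Among 13 subunits 6 rose and 3 fell at 6 h, and 5 rose and 4 fell at 12 h, while with total counts alone 2 rose and 8 fell at 6 h and 2 rose and 10 fell at 12 h. Eif3f and Eif3h, the pair of subunits that rose under every scaling at both times, neighbour each other in the complex with Eif3m. Eif3f had 239, 250 and 222 CPM in vehicle, 452, 477 and 418 CPM at 6 h and 480, 426 and 560 CPM at 12 h. Eif3h had 352, 346 and 341 CPM in vehicle, 668, 650 and 699 CPM at 6 h and 648, 646 and 598 CPM at 12 h. Neither had a PMA library within the vehicle range, and Eif3f rose by 0.92 ± 0.09 and 1.05 ± 0.09 (adjusted p = 6.8e-08 and 1.5e-08). Eif3h rose by 0.96 ± 0.07 and 0.87 ± 0.07 (adjusted p = 1.0e-09 and 4.3e-09). Eif3m rose at 6 h (0.49 ± 0.08, adjusted p = 3.4e-05; -0.043 with total counts alone) and was not called at 12 h (0.18 ± 0.08, adjusted p = 0.0613; called without vehicle replicate 1 at 0.23 or PMA 6 h replicate 3 at 0.17).

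Eif3a, the largest subunit, had 614, 603 and 634 CPM in vehicle, 841, 868 and 700 CPM at 6 h and 691, 757 and 667 CPM at 12 h. It rose at 6 h (0.38 ± 0.08, adjusted p = 5.9e-04; -0.16 with total counts alone). Its 12 h call (0.19 ± 0.08, adjusted p = 0.0483) was lost without any single library among vehicle replicates 1 to 3, PMA 6 h replicate 1 and PMA 12 h replicates 1 and 2 (0.14 to 0.21). Eif3d, a subunit that can itself bind the cap of some mRNAs, Eif3b, part of the core, and Eif3l fell at both times (-0.74, -0.50 and -0.56 at 6 h, -0.49, -0.62 and -0.27 at 12 h). Eif3g, the RNA-binding subunit, rose at both times (0.65 and 0.62), with no call under total counts alone (0.11 and 0.04). Eif3e was called at 6 h (0.25 ± 0.08, adjusted p = 0.0114), and the call was lost without vehicle replicate 2 (0.21) or PMA 6 h replicate 3 (0.17). Eif3j, the loosely bound subunit, was not called at 6 h (0.18 ± 0.09, adjusted p = 0.0915; called without PMA 6 h replicate 2 at 0.25) and fell at 12 h (-0.39 ± 0.09, adjusted p = 0.00112). Eif3k was called at 12 h (0.18 ± 0.07, adjusted p = 0.0394), a call lost on leaving out vehicle replicate 1, vehicle replicate 3, PMA 12 h replicate 2 or PMA 12 h replicate 3 (0.16 each). Eif3c and Eif3i were called at neither time, and Eif3i was called at 12 h without PMA 12 h replicate 1 (0.24).

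In the eIF4 list of cap binding and scanning, in which Eif4a3 was counted too, 8 of 10 factors rose and 2 fell at 6 h. At 12 h 5 rose and 1 fell. Over all tested genes 37.8% were higher and 39.0% lower at 6 h, and 37.7% and 38.2% at 12 h. With total counts alone 4 of the 10 factors rose and 3 fell at 6 h and 2 rose and 5 fell at 12 h. Eif4b, which stimulates the helicase eIF4A, had 522, 494 and 507 CPM in vehicle, 1249, 1236 and 1122 CPM at 6 h and 1060, 1039 and 1078 CPM at 12 h. It rose 2.37-fold at 6 h and 2.09-fold at 12 h (1.24 ± 0.07 and 1.06 ± 0.07, adjusted p = 4.6e-11 and 4.2e-10), with every PMA library above every vehicle library. Eif4g2, the relative of eIF4G that lacks the eIF4E-binding site, had 1070, 964 and 1003 CPM in vehicle, 1666, 1668 and 1745 CPM at 6 h and 1425, 1506 and 1282 CPM at 12 h. It rose at both times and most at 6 h (0.74 ± 0.08 and 0.47 ± 0.08, adjusted p = 1.2e-07 and 2.9e-05), but stood at -0.11 at 12 h with total counts alone.

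The helicases parted over time. Eif4a1 was higher at 6 h (0.67 ± 0.08, adjusted p = 4.7e-07) but not called at 12 h (-0.15 ± 0.08, adjusted p = 0.0973), whereas Eif4a2, its paralogue, was 0.87 ± 0.07 higher at both times (adjusted p = 4.3e-09 and 4.4e-09). Eif4a3, which marks exon junctions, had the pattern of Eif4a1 (0.62 ± 0.08 at 6 h, adjusted p = 1.4e-06, and -0.10 ± 0.08 at 12 h, adjusted p = 0.256). With total counts alone the 6 h values of Eif4a1 and Eif4a3 were 0.13 and 0.08 and not called, and their 12 h values were -0.73 and -0.68 and called lower, as they were with the upper quartile (-0.42 and -0.37). Eif4h, a cofactor of eIF4A like Eif4b, rose by 0.77 ± 0.10 and 0.60 ± 0.10.

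Of the cap-binding proteins themselves, the direction of Eif4e, the main one, depended on the scaling. With total counts alone it was called lower at both times (-0.39 and -0.46). With TMM it was called higher at 6 h (0.15 ± 0.07, adjusted p = 0.0475), a call lost without any single library among vehicle replicates 1 to 3, PMA 6 h replicates 1 to 3 and PMA 12 h replicate 1 (0.13 to 0.16). It was not called at 12 h (0.12 ± 0.07, adjusted p = 0.106; called without PMA 12 h replicate 3 at 0.16). Eif4e2, which binds the cap without recruiting eIF4G, rose at both times (0.40 and 0.43), with -0.13 and -0.15 under total counts alone. Eif4e3, an atypical cap-binding family member, had 52.1, 62.2 and 57.9 CPM in vehicle, 21.1, 18.1 and 12.5 CPM at 6 h and 20.3, 27.2 and 23.0 CPM at 12 h. It was 3.34-fold lower than vehicle at 6 h and 2.45-fold lower at 12 h (-1.74 ± 0.16 and -1.29 ± 0.16, adjusted p = 7.4e-08 and 2.1e-06), with no overlap. Its call at 12 h against 6 h (0.45 ± 0.17, adjusted p = 0.0337), where the groups overlapped, was lost without PMA 6 h replicate 2 (0.49), PMA 6 h replicate 3 (0.26), PMA 12 h replicate 2 (0.33) or PMA 12 h replicate 3 (0.47). Eif4g3, a further eIF4G, fell at 6 h (-0.32 ± 0.08, adjusted p = 0.00103) and was not called at 12 h (0.03 ± 0.08, adjusted p = 0.693). No gene symbol Eif4g1 stood in the count tables, so that eIF4G was not followed.

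The 4 genes of eIF4E-binding proteins split into 1 higher, 1 lower and 2 without a call at each time, with 1 higher and 2 lower at 6 h and 0 and 3 at 12 h under total counts alone. Eif4enif1, which encodes the shuttle protein 4E-T that carries eIF4E into the nucleus, had 35.3, 38.5 and 42.0 CPM in vehicle, 85.7, 77.9 and 82.0 CPM at 6 h and 73.6, 58.5 and 65.7 CPM at 12 h. It was higher in every PMA library than in any vehicle library (1.09 ± 0.10 and 0.77 ± 0.10, adjusted p = 2.1e-08 and 1.7e-06), with 0.19 and no call at 12 h under total counts alone. Its call at 12 h against 6 h (-0.31 ± 0.10, adjusted p = 0.0136) was lost without PMA 6 h replicate 1 (-0.28) or PMA 12 h replicate 2 (-0.23). Eif4ebp1, the 4E-BP best known as a target of mTORC1, had 92.4, 110 and 111 CPM in vehicle, 119, 125 and 96.5 CPM at 6 h and 118, 108 and 127 CPM at 12 h. These groups overlapped and no difference was called (0.12 ± 0.10 and 0.17 ± 0.10, adjusted p = 0.292 and 0.147). Eif4ebp2 fell (-0.70 ± 0.09 and -0.51 ± 0.09, adjusted p = 9.2e-07 and 3.6e-05), and Eif4ebp3 stayed between 4.32 and 7.47 CPM with no call.

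eIF5A, the hypusine-bearing factor that helps the ribosome through difficult stretches, is encoded by a pair of genes whose messages parted. Eif5a had 1053, 1101 and 1094 CPM in vehicle, 1300, 1325 and 1167 CPM at 6 h and 1350, 1283 and 1527 CPM at 12 h. It was called higher at both times (0.22 ± 0.08 and 0.36 ± 0.08, adjusted p = 0.018 and 6.6e-04), but these turned to -0.32 and -0.22 with total counts alone. The 6 h call was lost without vehicle replicate 1 (0.20), PMA 6 h replicate 1 (0.20) or PMA 6 h replicate 2 (0.19). Eif5a2, its paralogue, had 30.9, 22.6 and 18.8 CPM in vehicle, 15.6, 16.8 and 22.3 CPM at 6 h and 9.32, 13.7 and 7.98 CPM at 12 h. The 6 h libraries overlapped vehicle (-0.40 ± 0.21, adjusted p = 0.0999), and the difference was called without vehicle replicate 3 (-0.55) or PMA 6 h replicate 3 (-0.59). The 12 h libraries lay below all others (-1.22 ± 0.22 against vehicle, adjusted p = 1.8e-04, and -0.82 ± 0.23 against 6 h, adjusted p = 0.00776).

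Eef1a1 and Eef2 rose by 6 h and stayed high at 12 h. Eef1a1, which drew the most reads of the family, had 7203, 7254 and 7363 CPM in vehicle, 23120, 22868 and 22357 CPM at 6 h and 22501, 20769 and 23407 CPM at 12 h. It was 3.13-fold higher at 6 h and 3.06-fold higher at 12 h (1.65 ± 0.07 and 1.61 ± 0.07, adjusted p = 1.5e-12 and 2.2e-12), and 1.11 and 1.03 on the log2 scale with total counts alone. Processed copies of this gene are scattered through mammalian genomes, so reads that could not be placed are missing from its count. Eef2, the translocase, had 3686, 3768 and 3576 CPM in vehicle, 8443, 8644 and 7852 CPM at 6 h and 8139, 7994 and 8493 CPM at 12 h. Its PMA libraries all lay above vehicle (1.18 ± 0.07 and 1.16 ± 0.07, adjusted p = 1.1e-10 and 1.5e-10), with 0.64 and 0.58 under total counts alone. Between 12 h and 6 h no difference was called for Eef1a1 (-0.04 ± 0.07, adjusted p = 0.704) or Eef2 (-0.02 ± 0.07, adjusted p = 0.849). The partner subunits of eEF1A in the eEF1 complex did not share a direction. Eef1g rose by 0.70 ± 0.08 and 0.82 ± 0.08 and Eef1b2 by 0.58 ± 0.08 and 0.63 ± 0.08 (0.05 at both times and no call with total counts alone), whereas Eef1d fell by 0.50 ± 0.07 and 0.56 ± 0.07.

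The 3 remaining genes, which act on or beside the elongation factors, fell at both times under every scaling. Eef2k, whose kinase inhibits eEF2, had 41.3, 38.5 and 35.9 CPM in vehicle, 18.0, 19.5 and 15.8 CPM at 6 h and 27.1, 26.9 and 29.4 CPM at 12 h. It was 2.18-fold lower than vehicle at 6 h (-1.12 ± 0.11, adjusted p = 8.5e-08) and less so at 12 h (-0.47 ± 0.11, adjusted p = 9.4e-04), with 12 h above 6 h in every library (0.65 ± 0.12, adjusted p = 1.9e-04). Eef1e1, a protein of the multi-tRNA-synthetase complex, had 68.1, 60.8 and 52.4 CPM in vehicle, 29.7, 28.6 and 31.5 CPM at 6 h and 29.7, 29.6 and 29.7 CPM at 12 h. It fell at both times (-1.01 ± 0.10 and -1.03 ± 0.11, adjusted p = 1.1e-07 for each), with -0.02 ± 0.11 between 12 h and 6 h (adjusted p = 0.918). Eef2kmt, a lysine methyltransferase of eEF2, had 7.81, 6.62 and 6.21 CPM in vehicle, 1.45, 1.98 and 0.983 CPM at 6 h and 1.22, 1.60 and 2.43 CPM at 12 h (-2.24 ± 0.31 and -1.99 ± 0.31, adjusted p = 3.8e-06 and 1.4e-05). These counts leave out reads that lie where it overlaps another gene. The columns per strand together held 1456 reads against 585 here, and the excess, 122% of its count in vehicle, 243% at 6 h and 238% at 12 h, cannot be assigned to either gene, so its fold change is uncertain.

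At 12 h of PMA 18 of the 60 factors were lower than at 6 h and 10 were higher. Of all tested genes 25.8% were called lower and 25.3% higher, and 28 of the 60 factors and 51.1% of all genes were called in either direction. None of the factors differed by at least 2-fold, which 6.08% of all genes did upward and 5.44% downward. The groups did not overlap for 32 factors (58.0% of all genes). The median of the 60 was -0.05, beside 0.01 over all genes. The lower ones included Eif4a1 (-0.81), Eif5 (-0.79), Eif4a3 (-0.72), Eif3j (-0.56) and Eif1ad (-0.54), which carries an eIF1A-like domain. Eif1ad was above vehicle at 6 h (0.32 ± 0.09, adjusted p = 0.00356) and below it at 12 h (-0.22 ± 0.09, adjusted p = 0.0372). The 12 h call was lost without vehicle replicate 2 (-0.24), vehicle replicate 3 (-0.20), PMA 6 h replicate 1 (-0.22), PMA 12 h replicate 1 (-0.22) or PMA 12 h replicate 2 (-0.14). Rises in this step included Eif1b (0.76), Eef2k (0.65), Eif4g3 (0.35) and Eif1ax (0.32). The call of a smaller fall of Eif4b (-0.18 ± 0.07, adjusted p = 0.0395) was lost without vehicle replicate 2, PMA 6 h replicates 1 or 2 or PMA 12 h replicates 1 or 2 (-0.18 to -0.15). That of Eif3e (-0.26) was lost without PMA 6 h replicate 3 (-0.19) or PMA 12 h replicate 3 (-0.20).

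By the sequence of calls, 15 factors were higher at both times with no call between them (14.0% of all genes had this course) and 9 were lower in the same way (18.0%). A further 12 were called higher at 6 h and lower at 12 h than at 6 h (15.0%), and 7 took the mirror course (13.0%). Eif1b alone was called higher in both steps (7.40%), and Eif1a, Eif2b3 and Eif2s1 lower in both (6.00%). Eif2b5 and Eif3k were higher at 12 h only, against both earlier groups (4.27%), and Eif2a, Eif3j and Eif5a2 lower (4.16%). Eif3c, Eif3i, Eif4ebp1, Eif4ebp3 and Eif6 had no call at all (10.4%).

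The other genes of translation and its control, 51 tested of 59 listed, split into 17 higher and 19 lower at 6 h and 16 higher and 22 lower at 12 h. Over all tested genes 37.8% were higher and 39.0% lower at 6 h, and 37.7% and 38.2% at 12 h, so these counts lie near the background. Ppp1r15a, the stress-induced regulatory subunit of the phosphatase that reverses eIF2 alpha phosphorylation, rose most in its list. It had 123, 150 and 130 CPM in vehicle, 1025, 1042 and 765 CPM at 6 h and 957, 877 and 1037 CPM at 12 h, with no overlap (2.81 ± 0.12 and 2.83 ± 0.12, adjusted p = 1.1e-11 and 1.2e-11). Of the 6 genes of that list 2 rose and 2 fell at 6 h (2 and 4 with total counts alone), and 3 rose and 2 fell at 12 h (2 and 3). The largest fitted fall was that of Impact, an inhibitor of GCN2 (-0.41 ± 0.16 and -0.43 ± 0.16, adjusted p = 0.0316 and 0.0272). Gcn1l1, an activator of GCN2, fell by about as much at 12 h with a smaller error (-0.35 ± 0.07 and -0.42 ± 0.07, adjusted p = 1.3e-04 and 1.9e-05). The Impact calls were lost at 6 h without vehicle replicate 2 (-0.35), PMA 6 h replicate 1 (-0.35) or PMA 6 h replicate 2 (-0.26), and at 12 h without vehicle replicate 2 (-0.36) or PMA 12 h replicate 3 (-0.30).

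In the mTORC1 list 5 of 10 genes rose and 1 fell at 6 h, and 5 rose and 3 fell at 12 h (2 and 5, then 2 and 7, with total counts alone). Tsc1, which holds mTORC1 in check, had 16.3, 19.3 and 18.2 CPM in vehicle, 72.0, 73.2 and 85.6 CPM at 6 h and 114, 96.7 and 105 CPM at 12 h (2.11 ± 0.10 and 2.56 ± 0.10, adjusted p = 5.0e-12 and 4.6e-13). Mtor, the kinase itself, had 59.8, 64.0 and 63.5 CPM in vehicle, 24.9, 24.0 and 22.0 CPM at 6 h and 29.1, 33.0 and 29.7 CPM at 12 h (-1.40 ± 0.10 at 6 h, adjusted p = 5.9e-10). Mlst8, a partner subunit, gave the deepest fall of the list at 12 h (-1.10 ± 0.21, adjusted p = 1.4e-04). In the list of poly(A) binding proteins and of regulators of eIF4A and eIF4E, 5 of 8 rose and 2 fell at 6 h, and 4 rose and 3 fell at 12 h (3 and 3, then 2 and 5, with total counts alone). Paip2, which keeps poly(A)-binding protein off the mRNA tail, rose most at 6 h (1.61 ± 0.08, adjusted p = 3.6e-12). Pabpc1, the poly(A)-binding protein, rose most at 12 h (1.86 ± 0.09, adjusted p = 3.6e-12), and Pdcd4, an inhibitor of eIF4A, fell at both times (-0.64 ± 0.11 and -1.25 ± 0.11, adjusted p = 3.3e-05 and 1.7e-08).

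Termination, recycling and rescue factors split evenly at 6 h, 4 of 9 higher and 4 lower (4 and 5 with total counts alone). At 12 h 2 were higher and 3 lower (2 and 7 with total counts alone). Pelo, which rescues stalled ribosomes, rose most at both times (1.13 ± 0.11 and 1.39 ± 0.11), while Abce1, the recycling ATPase, fell most at 6 h (-0.83 ± 0.08) and Denr, a recycling factor related to Eif2d, at 12 h (-0.80 ± 0.07). The enzymes that modify eIF5A and eEF2 gave 1 higher and 4 lower of 8 at 6 h (1 and 7 with total counts alone). At 12 h they gave 2 higher and 3 lower (0 and 6 with total counts alone). Dph1, which begins diphthamide synthesis on eEF2, had 10.7, 10.4 and 10.9 CPM in vehicle, 0.830, 1.18 and 1.27 CPM at 6 h and 1.43, 2.69 and 1.82 CPM at 12 h (-3.27 ± 0.27 and -2.42 ± 0.26, adjusted p = 6.7e-09 and 1.5e-07). Its PMA levels rest on 12, 16 and 22 reads at 6 h and 21, 37 and 21 reads at 12 h. Reads lost where genes overlap were checked for the 61 factors only, not for Dph1. Dph2, the partner of Dph1 in beginning that synthesis, rose most at 6 h (1.10 ± 0.15, adjusted p = 3.3e-06), and Dnajc24, a further diphthamide gene, at 12 h (0.70 ± 0.18, adjusted p = 0.00232, with 0.12 and no call under total counts alone). Of 10 mitochondrial translation factors 0 rose and 6 fell at 6 h, and 0 rose and 8 fell at 12 h, beside 39.0% and 38.2% of all tested genes called lower. With total counts alone all 10 fell at both times. Mtfmt, which formylates the mitochondrial initiator tRNA, fell most at 6 h (-2.23 ± 0.25, adjusted p = 2.8e-07), and Guf1, a mitochondrial elongation GTPase, at 12 h (-1.99 ± 0.19, adjusted p = 3.0e-08). The mitochondrial list's medians were -0.59 and -0.61, beside -0.03 and -0.02 over all tested genes.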

How the data were processed

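RNA of 9 libraries was measured, 3 per group, with groups and replicate numbers from the sample titles. Per the labels' protocols, RNA was column-purified and DNase-treated, and library preparation was done by a company. The deposited tables give whole-number counts of reads per gene, which per the submitters' processing notes the authors made with STAR 2.7.5b on rn6. No source used here names the gene annotation. The unstranded column was used, and the columns per strand served only to find reads in overlaps between genes. Lines that name no gene stayed out (reads mapped to several places were 6.0% to 7.7%). A deposited normalized table was not used here.

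Genes were kept by filterByExpr (minimum count 10), which left 10128 of 17315 genes and 60 of 61 members. Counts were fitted in R 4.3.3 with edgeR 4.0.16 (TMM, robust quasi-likelihood, group as the only term, all 9 libraries). Benjamini-Hochberg adjustment ran over all 10128 genes, with calls at adjusted p under 0.05 and SEs from the fit. limma 3.58.1 and DESeq2 1.42.0 gave alternatives. The fitting was tested on simulated data in which only a small part of the genes changed, which does not bear on the choice of scaling. Chi-square per degree of freedom between libraries of a group was 3.88 to 27.8, so none was a copy. Without transcript lengths, levels of different genes are not compared as molecules. Sequences came from RefSeq GRCr8 start windows.

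Members, lists and tests were chosen with earlier results of these data known. Members given with every library were, in each role list, the one with the highest mean CPM, those with the largest change at 6 h and at 12 h, and any called and at least 2-fold different. For the other lists the called genes with the largest rise and fall were named.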

Additional observations from a re-analysis of the deposited data

Results flagged for a closer look

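A pair of factors was called on opposite sides of vehicle at the PMA times, and the test between 12 h and 6 h bears on that difference directly. Eif1ad was 0.32 above vehicle at 6 h and stood at -0.22 at 12 h, a log2 difference of -0.54 between 12 h and 6 h (edgeR quasi-likelihood test, adjusted p = 1.0e-04). Eif2ak1 was 0.22 above vehicle at 6 h and stood at -0.28 at 12 h, a difference of -0.50 (adjusted p = 1.0e-04). In both genes the 3 libraries at 12 h lay below the 3 at 6 h. The 6 h direction turned with total counts alone, to -0.21 for Eif1ad and -0.32 for Eif2ak1, and to -0.04 for Eif2ak1 with the upper quartile, whereas the difference between 12 h and 6 h kept its call under all 4 scalings.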

How the results depend on the processing

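Members called at 6 h, 12 h and 12 h against 6 h numbered 46, 42 and 26 with the replicate block, beside 48, 47 and 28 without it. The replicate numbers did not pair the libraries: deviations of same-numbered libraries from their group means correlated at -0.11 to 0.027, none of 9 pairs passed 0.1, and 0 of 9 libraries correlated best with their own number. Leaving out 1 library gave 45 to 48, 43 to 48 and 24 to 28 called members, of which 25 to 29, 20 to 24 and 8 to 10 were higher and 18 to 21, 22 to 24 and 16 to 18 lower, and no called direction turned. The genes called over the whole table then numbered 7349 to 7865, 7259 to 7830 and 4623 to 5275. The members whose call was lost without 1 library are named beside their values. Calls gained in this way are given only against vehicle, and those gained between 12 h and 6 h are not named. DESeq2, limma-voom, no filter on low counts, median-of-ratios scaling and fits of only 2 groups kept every member's called direction and gave 46 to 48, 44 to 47 and 27 to 28 called members. Total counts alone moved the members higher and lower to 13 and 36 at 6 h and to 9 and 43 at 12 h. Of log2 values called under TMM or under the other scaling, directions turned with total counts alone at 6 h for Eif1ad -0.21, Eif2ak1 -0.32, Eif2b2 -0.35, Eif2s2 -0.36, Eif2s3y -0.019, Eif3a -0.16, Eif3e -0.29, Eif3i -0.40, Eif3j -0.36, Eif3m -0.043, Eif4e -0.39, Eif4e2 -0.13, Eif4ebp1 -0.42, Eif5a -0.32, Eif5b -0.090 and Eif6 -0.42, and at 12 h for Eif2b2 -0.32, Eif2b5 -0.34, Eif2s3y -0.45, Eif3a -0.39, Eif3c -0.57, Eif3i -0.41, Eif3k -0.40, Eif3m -0.40, Eif4e -0.46, Eif4e2 -0.15, Eif4ebp1 -0.41, Eif4g2 -0.11, Eif4g3 -0.55, Eif5a -0.22, Eif5b -0.31, Eif6 -0.44 and Dph2 -0.033. By the same condition the upper quartile turned Eif2ak1 -0.038, Eif2s2 -0.082, Eif3e -0.0056, Eif4e -0.10 and Eif5a -0.033 at 6 h, and Eif2b2 -0.014, Eif2b5 -0.031, Eif3a -0.077, Eif3c -0.26, Eif3k -0.093 and Eif4g3 -0.24 at 12 h. Each scaling shifts all genes by nearly the same amount, which turns values near 0. Several of these genes were not called under TMM, and further values near 0 changed sign without a call under either scaling. Eef1a2, with at most 9 reads in a library, did not pass the filter on low counts and was not tested.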
